A study of Mus musculus with 4 samples.

Results

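The Notch receptors, their ligands and the Fringe enzyme Mfng were examined in hearts of mouse embryos at embryonic day 9.5, as 10 genes taken by name among the 16675 genes that the arrays measured. The genes were the 4 receptors Notch1 to Notch4, the Delta-like ligands Dll1, Dll3 and Dll4, the Jagged ligands Jag1 and Jag2, and Mfng. They carried 12 of the 29922 probes, with 2 probes each for Notch4 and Dll4, and the brighter of these stood for the gene. Of 4 one-colour arrays, 2 held pools of Salv CKO hearts, in which the Hippo scaffold gene Salvador (Sav1) was conditionally knocked out, and 2 held pools of control hearts labelled wild-type. All 4 pools were whole hearts from a C57bl/6 x129 hybrid background, and the study asked which genes the Hippo pathway regulates as the heart forms. The Cre line that drove the knockout, other alleles in either group and the number of hearts per pool are not stated in the labels.

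Notch receptors are single-pass membrane proteins that are activated by ligands on neighbouring cells. Ligand binding lets proteases cut the receptor, and the freed intracellular part joins the DNA-binding protein Rbpj to switch on genes of the Hes and Hey families. Fringe enzymes extend the O-linked fucose on the receptors and so change which ligands can activate them. In the developing heart the pathway is known for its work in the endocardium, in valve formation and in trabeculation, and outside it for somite segmentation and for holding neural progenitors undifferentiated.

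Of the 10 genes, 2 rose and 1 fell in Salv CKO hearts at an adjusted p under 0.05 (limma, two-sided, Benjamini-Hochberg over all genes). Dll3 rose 2.92-fold, Mfng rose 1.97-fold, and Dll4 was 1.77-fold lower in Salv CKO. By the same threshold, 10.6% of all genes were called, 4.92% higher and 5.7% lower. None of the 4 receptors and neither Jagged ligand passed. The groups did not overlap for 9 of the 10 genes (all genes: 54.2%), with 4 higher in Salv CKO (all genes: 25.2%) and 5 lower (all genes: 29%). Among the 9 were Jag2, above background on 1 array, and Jag1, with nearest pools at 7.02 and 7.06. Notch4 was also among them, but its deposited intensities overlapped, with 737 and 601 in Salv CKO, against 674 and 783 in controls. The median difference of the 10 was -0.17 (log2), against -0.04 over all genes. That median lies between Notch1 (-0.26) and Notch2 (-0.09), and Notch2 was above background on 0 arrays. It therefore rests in part on a gene that could not be compared. All differences are normalised log2 intensity in Salv CKO minus control with limma's standard error and n = 2 pools per group. The smallest p that an exact permutation test can give here is 0.333, and every call therefore depends on limma's sharing of the spread between genes. The calls of Dll3, Mfng and Dll4 were lost with any 1 array left out, where 0 of all genes passed (3172 to 3438 at an unadjusted p under 0.05), and without a trend of the spread on intensity (0 of all genes, 3578 unadjusted). With the intensities floored at 64 none of the 3 passed (adjusted p = 0.0544 for Dll3, 0.0801 for Mfng and 0.0650 for Dll4), and with a floor of 16 Dll3 alone did (0.0800 for Mfng and 0.0526 for Dll4).

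The RefSeq promoter windows of the Delta-like ligands that were called in opposite directions are shown as their 250 bases before the annotated start (GRCm38.p6, 5′ to 3′ on the gene's strand). Dll3 lies on the minus strand, with its window at chr7:28301786-28302035, and Dll4 on the plus strand, at chr2:119325534-119325783. Capitals mark matches to 3 motifs searched on both strands, none of which overlap: the Rbpj core TGGGAA and the E-boxes CAGCTG and CATCTG, a motif class bound by basic helix-loop-helix factors.
Dll3: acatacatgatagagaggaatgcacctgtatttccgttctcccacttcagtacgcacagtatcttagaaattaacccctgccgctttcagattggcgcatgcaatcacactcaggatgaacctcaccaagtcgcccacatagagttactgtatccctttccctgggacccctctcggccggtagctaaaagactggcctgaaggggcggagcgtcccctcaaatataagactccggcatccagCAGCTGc
Dll4: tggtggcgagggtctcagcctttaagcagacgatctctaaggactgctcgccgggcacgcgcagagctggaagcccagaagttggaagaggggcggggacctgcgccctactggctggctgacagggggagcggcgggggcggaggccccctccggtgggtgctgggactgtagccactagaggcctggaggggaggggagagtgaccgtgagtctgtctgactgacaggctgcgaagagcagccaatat
The Dll3 window held 1 CAGCTG, which began 7 bases before the start, and the Dll4 window held none of the motifs. Over the 10 windows of the 9 genes found in the table, TGGGAA was in 0, CAGCTG in 3 and CATCTG in 0. The windows with CAGCTG were those of Dll3, Jag1 and 1 of the 2 Dll1 starts. Among all 32851 promoter windows of the same length, 21.6% held TGGGAA, 13% held CAGCTG and 14.4% held CATCTG. Base composition differed between the printed windows, with 52% G and C for Dll3 and 65.6% for Dll4. Mfng was not among the promoters used.

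The arrays differed in brightness before normalisation, with median intensities of 71.1 and 76.1 in Salv CKO and 77.5 and 101 in controls. Pearson's r over all probes after normalisation was 0.947 within Salv CKO, 0.946 within controls and 0.937 to 0.942 across the groups. Sav1 itself had normalised log2 intensities of 9.19 and 9.13 in Salv CKO, against 9.56 and 9.30 in controls. Its difference of -0.27 ± 0.13 did not pass (limma adjusted p = 0.267), and since the labels do not place the probe relative to the deleted part, this does not check the labels. The heart muscle genes Myh6, Myl2 and Actc1 were bright in both groups and at the ceiling of the intensity range in controls. For Myh6 the controls were at that ceiling (58286 and 63797) and the Salv CKO pools below it (32964 and 31913). Its called difference (-0.67) may therefore understate the fall. Actc1 was at the ceiling in Salv CKO too, at deposited intensities of 63712 and 67305.

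A probe counted as above background at a deposited intensity over 16, and 7 of the 10 genes were above it on all 4 arrays. Notch2 was above it on 0 arrays, Jag2 on 1 and Dll1 on 3. For these 3 genes the probes leave the level of at least 1 pool as a bound. No probe of the 10 genes was near saturation, since their highest intensity was 3100.

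**Figure D1:**
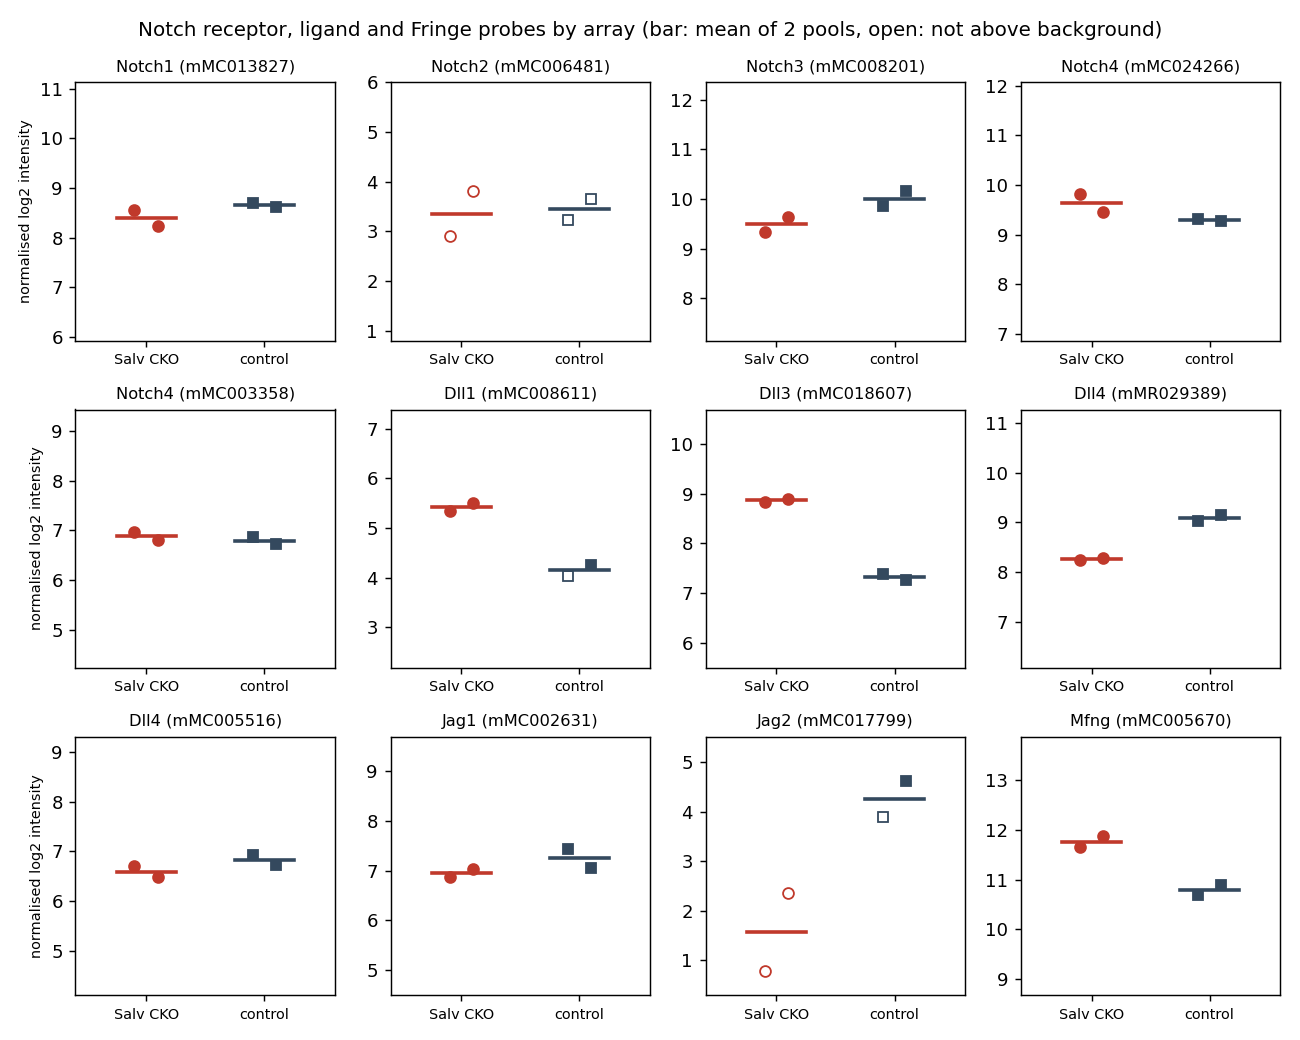
Normalised log2 intensity of the 12 probes on each array, 1 panel per probe, with Salv CKO pools as red circles left of control pools as dark squares and the group mean as a bar. Every panel spans the same log2 range, and open symbols mark arrays that were not above background. The Salv CKO pools stand above the control pools for Dll3, Dll1 and Mfng and below them for the Dll4 probe mMR029389.

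Among the receptors, Notch1 acts in endocardium and endothelium and is required for cardiac cushion formation. It had normalised log2 intensities of 8.57 and 8.23 in Salv CKO, against 8.70 and 8.62 in controls. Each Salv CKO value was under each control value, but by less than the test needed (-0.26 ± 0.16, 95% interval -0.67 to 0.15, limma adjusted p = 0.386). With 1 array left out the difference was between -0.43 and -0.09, and it was -0.66 with the values as deposited.

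Notch3, the receptor best known from vascular smooth muscle and pericytes, was at 9.34 and 9.64 in Salv CKO, against 9.85 and 10.16 in controls. All Salv CKO values were below all control values, and the difference of -0.52 ± 0.16 missed the threshold (95% interval -0.94 to -0.10, limma adjusted p = 0.123). It passed under median centring of the arrays (-0.71, adjusted p = 0.0145) and with the values as deposited (-0.98, adjusted p = 0.0269). In those versions the median of all genes was itself -0.14 and -0.41.

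Notch4 is largely an endothelial receptor. Its brighter probe, mMC024266, gave 9.81 and 9.46 in Salv CKO, against 9.32 and 9.28 in controls. The Salv CKO pools were both higher, and the difference of 0.33 ± 0.15 did not pass (95% interval -0.04 to 0.71, limma adjusted p = 0.235). With 1 array left out it was between 0.16 and 0.51, and with the values as deposited it was -0.13, so even its direction depends on the scaling. The other probe, mMC003358, gave 0.09 ± 0.21 with groups that overlapped.

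Notch2, the receptor altered in some cases of human Alagille syndrome, could not be compared. Its deposited intensities were 6.81 and 13.4 in Salv CKO, against 8.02 and 15.6 in controls, all at or below the background limit. Of the receptors that could be measured, Notch1 and Notch3 were thus lower and Notch4 higher in both Salv CKO pools after normalisation. None passed the threshold.

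Dll3 had the lowest p of the 10 genes. It is an unusual Delta-like protein that in the mouse is found in presomitic mesoderm and neural tissue and that inhibits Notch signalling within its own cell. Normalised log2 intensities were 8.84 and 8.90 in Salv CKO, against 7.38 and 7.27 in controls. The gap between the groups was far wider than that between pools of either group, with a difference of 1.54 ± 0.14 (95% interval 1.19 to 1.90, limma adjusted p = 0.00981). In the deposited intensities the separation was also complete, with 384 and 418 in Salv CKO, against 167 and 192 in controls. Dll3 stayed called under all 3 other scalings, at 1.16 to 1.57.

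Dll1, the main activating Delta-like ligand of somites and neural progenitors, was close to the background limit. Deposited intensities were 34.1 and 43.2 in Salv CKO, against 15.1 and 23.4 in controls, of which 1 was not above background. Both Salv CKO pools were higher, and the difference of 1.28 ± 0.40 did not pass (95% interval 0.25 to 2.31, limma adjusted p = 0.120).

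Dll4 is the ligand of arterial endothelium and of the endocardium, where it acts on Notch1. Its probe mMR029389 gave 8.24 and 8.29 in Salv CKO, against 9.03 and 9.14 in controls. The groups were well apart, and the gene fell by 0.82 on the log2 scale (SE 0.12, 95% interval -1.13 to -0.52, limma adjusted p = 0.0211). Its dimmer probe, mMC005516, gave 6.70 and 6.48 in Salv CKO, against 6.92 and 6.72 in controls. That probe also had both Salv CKO pools below both controls, but the difference of -0.23 ± 0.23 was not called (limma adjusted p = 0.597 over all named probes). The mean of both probes gave -0.53 (adjusted p = 0.112), so the call of Dll4 rests on 1 of its 2 probes.

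Jag1, a ligand of endocardium, cushion and vessel wall that is mutated in most cases of human Alagille syndrome, was at 6.87 and 7.02 in Salv CKO, against 7.44 and 7.06 in controls. Salv CKO pool 2 and control pool 2 were nearly level. The difference of -0.30 ± 0.23 did not pass (95% interval -0.88 to 0.28, limma adjusted p = 0.470), and it was between -0.49 and -0.11 with 1 array left out.

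Jag2, a ligand known from limb, thymus and craniofacial development, was at deposited intensities of 1.95 and 5.14 in Salv CKO, against 13.4 and 30.2 in controls. Only control pool 2 was above background. No fold is given for a gene measured in a single pool, and the test did not pass (limma adjusted p = 0.121).

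Mfng, which adds N-acetylglucosamine to O-fucose on Notch receptors, was at 11.65 and 11.89 in Salv CKO, against 10.70 and 10.89 in controls. Salv CKO pools were both higher, with a difference of 0.98 ± 0.12 (95% interval 0.67 to 1.28, limma adjusted p = 0.0152). The size depends on the scaling. With the values as deposited it was 0.47 and not called (adjusted p = 0.112), although 2638 and 3100 in Salv CKO still lay above 1790 and 2375 in controls. With the other 2 scalings Mfng remained called.

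**Figure D2:**
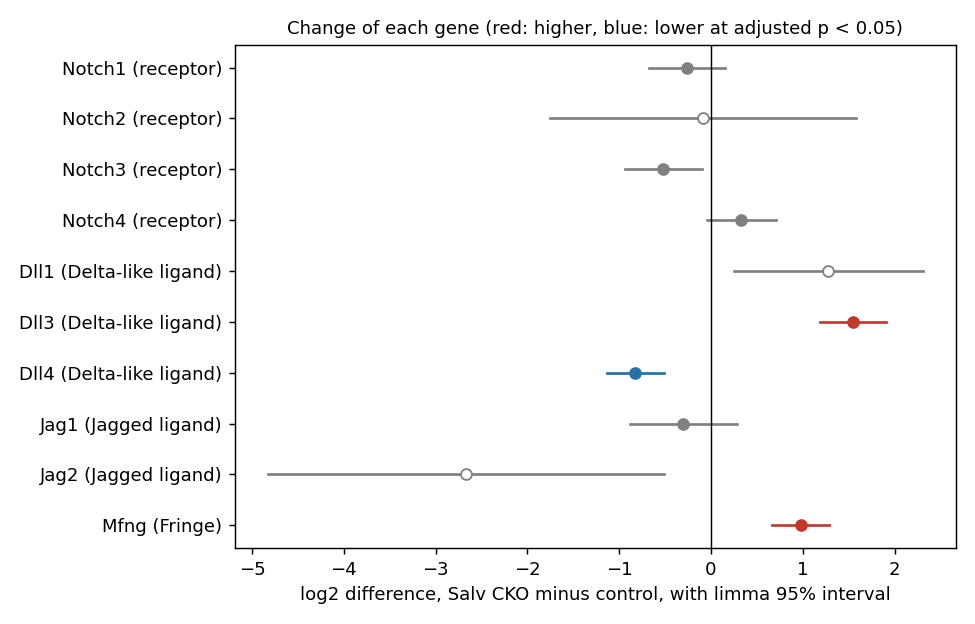
Log2 difference of each of the 10 genes, Salv CKO minus control, with limma's 95% interval as a line; red marks a gene called higher, blue one called lower, grey one not called, and open circles genes not above background on all 4 arrays. Dll3 and Mfng lie right of 0 at 1.54 and 0.98, Dll4 lies left of it at -0.82, and the open circles of Notch2, Dll1 and Jag2 have the widest intervals.

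**Figure D3:**
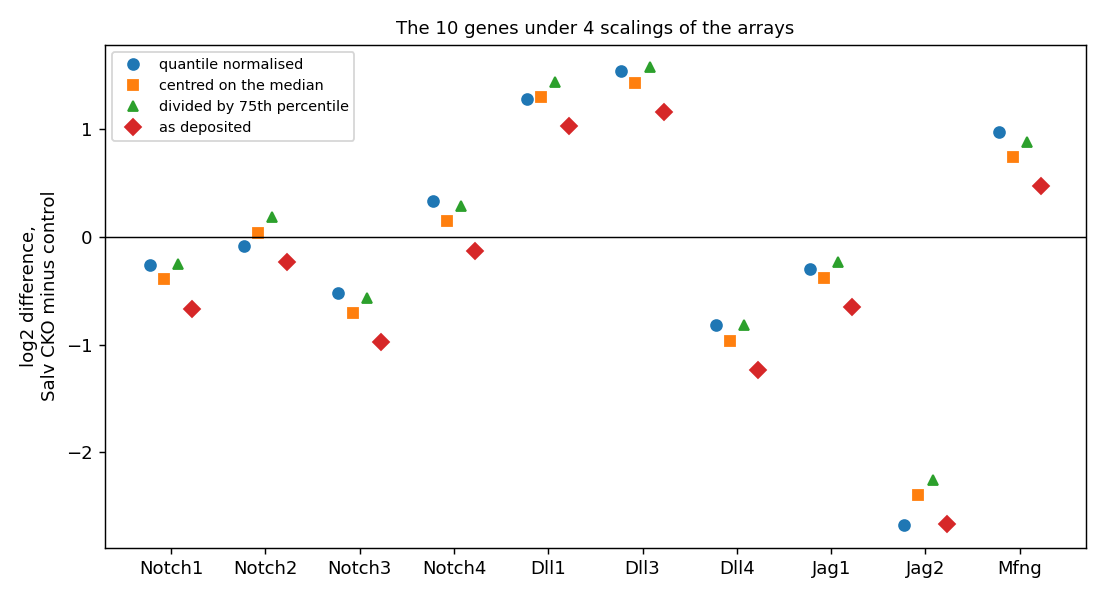
Log2 difference of each of the 10 genes, Salv CKO minus control, under 4 ways of scaling the arrays, 1 symbol per scaling. Dll3, Mfng and Dll4 keep their direction under all 4, while Notch2 and Notch4 cross 0.

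The sets of genes that work with these receptors and ligands moved in both directions. Of 48 listed pathway genes 42 were measured, 5 rose (all genes: 4.92%) and 4 fell (all genes: 5.7%), and their median difference was 0.02, against -0.04 for all genes. Of the other enzymes that build the sugars on Notch, 1 of 4 rose. This was Pofut1, which adds the O-fucose that Fringe extends, with 9.58 ± 0.05 in Salv CKO and 9.04 ± 0.09 in controls (SD, n = 2 each) and a difference of 0.54 ± 0.11 (limma adjusted p = 0.0419). Besides the settings that ended the member calls, Pofut1 lost its call with median centring (0.36, adjusted p = 0.151) and with the values as deposited (0.09, adjusted p = 0.713). The other Fringe enzymes, named beside Mfng, gave 0.74 ± 0.16 for Rfng (adjusted p = 0.0551) and -0.58 ± 0.58 for Lfng (adjusted p = 0.595) on their brighter probes, and 0.19 and 0.59 on their others. Neither was called, and both Lfng probes were dim.

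Of 7 measured genes of receptor cleavage, 2 fell (all genes: 5.7%) and 0 rose (all genes: 4.92%). Furin, the protease that cuts the receptor on its way to the surface, was at 11.64 ± 0.02 in Salv CKO and 12.39 ± 0.16 in controls (SD, n = 2 each), a difference of -0.75 ± 0.10 (limma adjusted p = 0.0170). Nicastrin (Ncstn), a subunit of the gamma-secretase that frees the intracellular part, fell by 0.56 on the log2 scale (SE 0.09, adjusted p = 0.0258). The ectodomain protease Adam10 was at -0.20 ± 0.15 and Adam17 at 0.05 ± 0.08, neither called.

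Ligand handling and the nuclear core had no call, among 4 genes such as the ubiquitin ligase Mib1 (0.37 ± 0.21) and 3 such as the coactivator Maml1 (-0.01 ± 0.06). The DNA-binding partner Rbpj was dim on both of its probes, so its difference of 0.21 ± 0.45 says little. Of 14 inhibitors and turnover genes 1 rose (all genes: 4.92%) and 1 fell (all genes: 5.7%). Both were members of the Deltex family of ubiquitin ligases. Dtx4 was at deposited intensities of 578 and 500 in Salv CKO, against 141 and 116 in controls, a 5.53-fold rise (log2 2.47 ± 0.25, limma adjusted p = 0.0113). Dtx3 fell by 0.66 on the log2 scale (SE 0.11, adjusted p = 0.0286).

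Of 4 non-canonical ligands Dlk1, a Delta-like protein without the receptor-binding domain of the canonical ligands, rose by 0.78 ± 0.07 (limma adjusted p = 0.00893). Its dimmer probe gave 0.61 ± 0.15, not called, and with the values as deposited the gene was at 0.28, not called. Of the 6 Hes and Hey genes 2 rose (all genes: 4.92%) and 1 fell (all genes: 5.7%). Hes5 (2.83 ± 0.17) and Hes1 (0.76 ± 0.08) rose and the ventricular repressor Hey2 (-0.34 ± 0.06) fell, with limma adjusted p of 0.00661, 0.0121 and 0.0376. Hes5 is also a neural progenitor marker and is counted in that list too. Hey1 was at -0.51 ± 0.18 with no call, and Hes1 was at 0.26 and not called with the values as deposited.

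**Figure D4:**
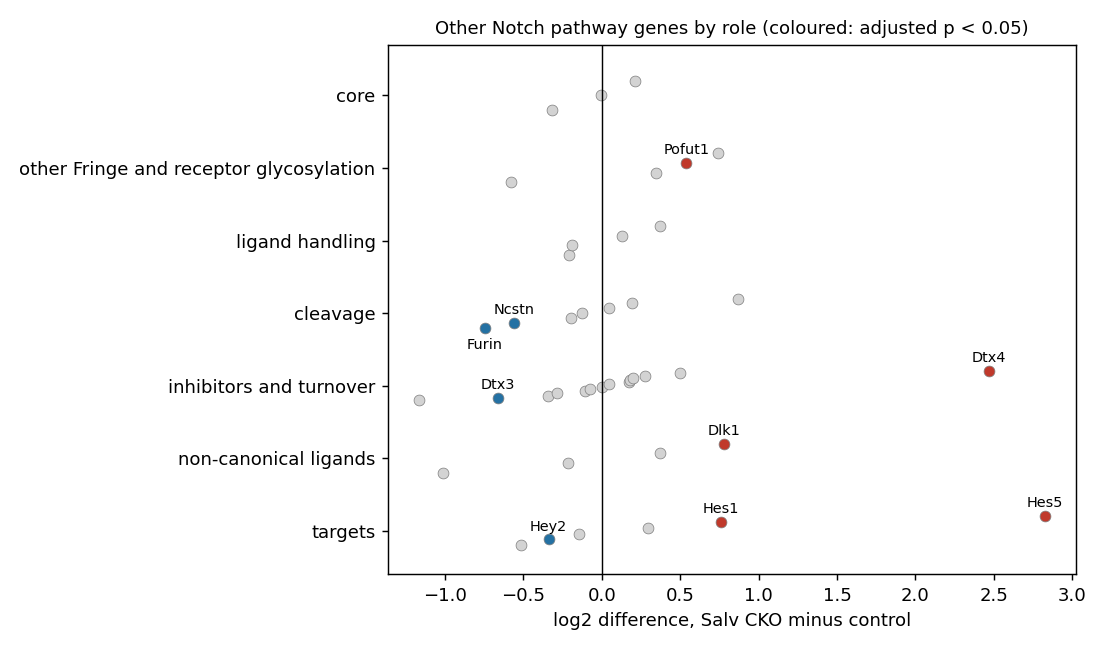
Log2 difference of the 42 other measured Notch pathway genes, Salv CKO minus control, 1 row per role, with genes called higher in red, called lower in blue and not called in grey. Dtx4 and Hes5 lie farthest right, at 2.47 and 2.83, and the called cleavage genes Furin and Ncstn lie left of 0.

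Each array measured a whole heart pool, so fewer cells of a type and less RNA per cell cannot be told apart. Marker genes of several cell types moved in the same pools. Of 16 measured endothelial and endocardial markers 6 fell (all genes: 5.7%) and 1 rose (all genes: 4.92%), with a median difference of -0.51 and 13 lower without overlap of the groups (all genes: 29%). Their summed normalised intensity was 24660 and 24160 in Salv CKO, against 36860 and 36370 in controls. Endoglin (Eng) had the largest called fall, at -1.08, and the claudin Cldn5 rose by 0.86. The Dll4 difference of -0.82 lay within the range of that list, and Notch1 (-0.26) and Notch4 (0.33) lay above its median. The Dll4 value also lay within the ranges of the heart muscle, primitive red cell and mural lists given below. The part of these markers in the Dll4 result was not tested.

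Dll3 and Dll1 are known from neural and presomitic tissue, and markers of both were examined. Of 9 neural progenitor markers 3 rose (all genes: 4.92%) and 1 fell (all genes: 5.7%). The risen genes were Neurog2 (4.40), Sox2 (3.71) and Hes5, and the fallen gene was Nes (-0.75). Of the 5 not called, Pax6 (0.01) and Olig2 (-0.11) were close to 0, and Sox1 (0.63), Sox3 (0.52) and Neurog1 (0.55) were above it. The list's sums were 10920 and 11500 in Salv CKO, against 8620 and 9778 in controls. Without Olig2, its brightest gene, they were 6225 and 6183 in Salv CKO, against 3682 and 3880 in controls. The list's median was 0.55, below the Dll3 difference of 1.54, which lay within the list's range of -0.75 to 4.40. Of 9 presomitic and somite markers 3 rose (all genes: 4.92%) and 0 fell (all genes: 5.7%). The 9 markers had sums of 4222 and 4303 in Salv CKO, against 1208 and 1311 in controls. Without Tcf15, the brightest of them, the sums were 1153 and 1304 in Salv CKO, against 821 and 979 in controls. The 3 were of formed somites, led by Tcf15 (3.08) and Meox1 (2.50). The presomitic genes, where the mouse Dll3 gene is known to be active, gave -0.10 ± 0.18 for T, 0.12 ± 0.37 for Tbx6, -0.63 ± 0.47 for Msgn1 and -0.03 ± 0.27 for Mesp2, none called. Myf5, a skeletal muscle factor of that list, was not above background on any array. The Dll3 difference also lay within the range of the presomitic and somite list (-0.63 to 3.08, median 0.12). It lay within the range of the neural crest list given below too, and under that list's median. That median was 1.82 over the 7 genes above background on any array. The part of these markers in the Dll3 result was not tested.

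Of 8 neural crest markers 4 rose (all genes: 4.92%), led by Tcfap2b (2.73) and Sox10 (2.57), and 0 fell (all genes: 5.7%). Crabp1 (1.82) makes up most of the list's signal, and the sums without it were 2329 and 2406 in Salv CKO, against 987 and 957 in controls. Of 11 heart muscle markers 5 fell (all genes: 5.7%) and 0 rose (all genes: 4.92%), among the 5 Nkx2-5 (-1.61) and Ttn (-1.41). The list's sums, without the 3 genes at the ceiling, were 98350 and 102500 in Salv CKO, against 124000 and 151100 in controls. Of 6 primitive red cell markers 2 fell (all genes: 5.7%), the globin Hbb-y (-1.08) and the haem enzyme Alas2 (-0.94). The list's sums, without Hba-x at the ceiling, were 43940 and 41380 in Salv CKO, against 62040 and 64030 in controls. Of 7 smooth muscle and mural markers, set beside Notch3, 1 fell (all genes: 5.7%), Cspg4 (-0.98), and 0 rose (all genes: 4.92%). Without Acta2, at the ceiling, their sums were 2282 and 1951 in Salv CKO, against 2860 and 2581 in controls. The pericyte marker Pdgfrb was at 0.73 ± 0.24 with no call, and Rgs5 was not above background on any array. Whether any of these cells had a part in the Mfng or Notch3 values was not tested.

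**Figure D5:**
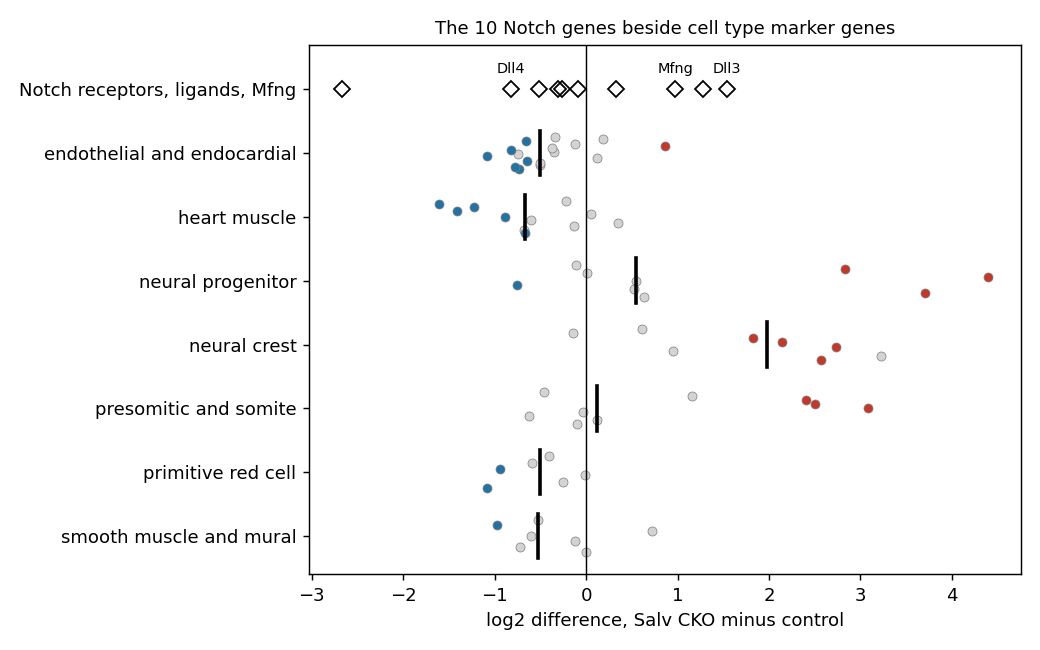
Log2 difference, Salv CKO minus control, of the 10 Notch genes (open diamonds, top row) and of the marker genes of 7 cell types (dots; red called higher, blue called lower, grey not called; black bar: list median). Dll4 at -0.82 lies on the side of most endothelial markers, and of most heart muscle, red cell and mural markers. Dll3 at 1.54 and Mfng at 0.98 lie on the side of most neural progenitor and neural crest markers, and of 5 of 9 presomitic and somite markers.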

How the data were processed

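Per the labels, RNA of whole hearts was amplified with amino-allyl nucleotides and coupled to Cy5, and each pool was put on 1 array. The authors deposited linear intensities per probe, with 3.37 to 5.99% of values below 0, so background had been subtracted. Scanner, software and scaling: not given in the sources used here. Quantile normalisation used limma 3.58.1 (R 4.3.3), followed by a floor of 1 and log2. The background limit of 16 was set from the noise SD of 4.36 to 6.28 read from values below 0. The platform's gene table of 2013 gave 1 symbol for 21020 probes. The other 8902 probes had no single symbol and were not used as genes. The probe with the highest mean stood for each of 16675 genes. The fit used lmFit and eBayes with the spread modelled on intensity (2.92 prior and 2 residual degrees of freedom), Benjamini-Hochberg over all genes at 0.05, and the procedure was tested on simulated data. Every named probe was also fitted as its own row.

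The pools are described as biological replicates; the number of arrays limits the precision. Members, gene lists and tests were chosen with earlier results of these data known. The text names all 10 members with every probe and each called pathway gene. Of each marker list it names up to 2 called genes, the largest by size. Myh6, Myl2 and Actc1 were named as a check of the tissue. Crabp1, Nes, Hes5 as a marker and genes outside the 10 given without a call were named after their values were seen. So were the genes left out of marker sums, for being within 1% of an array's highest intensity or for being the brightest of their list. Pathway symbols were matched directly or through RefSeq synonyms, and coordinates and promoters are RefSeq's on GRCm38.p6, where 10 of 10 members matched by symbol and 9 had a promoter; the array's table names no build. Alternatives were other scalings, floors, a filter on dim genes, the mean of probes, no trend, a replicate term and leaving out each array.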

Additional observations from a re-analysis of the deposited data

How the results depend on the processing

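Dll3 kept its call under 7 of 13 alternatives, Dll4 under 5 and Mfng under 5, and none of these changed direction. Of the 10 genes 3 were called, against 1 with a floor of 16, 0 with a floor of 64 and 0 without an intensity trend (3 and 5 of 10 at an unadjusted p under 0.05 in these last versions). The other pathway genes gave 9 calls, against 3 with either floor and 0 without the trend (10 at an unadjusted p under 0.05). The 3 that stayed called with either floor were Dlk1, Hes5 and Hey2. Dtx4, Dtx3, Furin, Ncstn, Hes1 and Pofut1 lost their calls with both floors. Over all genes 1772 were called, against 3330 with the values as deposited, 481 and 491 with floors of 16 and 64, and 0 without the trend (3578 at an unadjusted p under 0.05). Of all calls 46.3% were higher in Salv CKO, against 22.8% with median centring, 40.6% with the 75th percentile and 6.88% as deposited. The cause of these shifts was not tested.

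With any 1 array left out, limma called 0 of the 10 genes (3 to 5 at an unadjusted p under 0.05), 0 of the pathway genes (11 to 13) and 0 of all genes (3172 to 3438); the lone array is then assumed to vary like the other group. The differences ranged from 1.49 to 1.58 for Dll3, from -0.86 to -0.77 for Dll4 and from 0.86 to 1.10 for Mfng. Notch2, below background, was at -0.09 and turned to 0.041 with median centring, 0.18 with the 75th percentile, and 0.36 and 0.10 without Salv CKO pool 1 and control pool 2; with 1 array left out it ranged from -0.53 to 0.36. Notch4 turned to -0.13 as deposited.

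Pools share only a number between groups. With the replicate block 4 of the 10 genes, 12 pathway genes and 2211 genes in all were called; Notch3 was the added member (adjusted p = 0.0289). With every named probe tested, the called ones among the 12 were the main probes of Dll3, Dll4 and Mfng. The dimmer probes of Notch4 and Dll4 were not called. Depth is not defined for arrays; Notch2, Jag2 and Dll1 are limited by signal over background.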
